A study of Mus musculus with 9 samples.

Results

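Cholesterol synthesis genes were followed in mouse liver through 6 enzymes of the pathway, Hmgcs1, Mvd, Fdps, Idi1, Sqle and Lss, and Srebf2, which encodes SREBP2, the transcription factor that drives them. These 7 genes were taken by name from the array's table of 19938 genes, all 7 were measured, and each was read from its brightest probe set, that is, from the group of array probes for the gene with the highest mean over all arrays. RNA of 9 liver samples was hybridised to Affymetrix gene arrays, 3 in each of 3 groups. Wild-type mice were C57BL/6J. Clock mutant mice carried Clock-D19, a splicing mutation whose CLOCK protein lacks part of its activation domain, and the labels do not name their strain background. Rescue mice were Clock-D19 mutants injected at week 10 with 35 µg of plasmid encoding wild-type Clock, in the liver expression vector pLIVE; the injection was hydrodynamic, that is, a large volume given fast into the tail vein. All 3 groups ate 45% high-fat diet for 5 weeks from 10 weeks of age and were killed at zeitgeber time 10 in a 12 h light and 12 h dark cycle. A control injection of wild-type and mutant mice is not described in the labels, so injection and Clock supply cannot be told apart.

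Cholesterol is built from acetyl-CoA. The first steps make mevalonate, mevalonate is turned into the isoprenoid units isopentenyl and dimethylallyl diphosphate, these are joined to farnesyl diphosphate, and squalene made from it is oxidised and closed into lanosterol, the first sterol. When membrane sterol is low, SCAP carries SREBP2 from the endoplasmic reticulum to the Golgi, where it is cut and released to activate most genes of the pathway; INSIG proteins hold the complex back when sterol is plentiful. In liver the pathway follows the time of day and feeding, and its transcripts are regulated both by sterol and by the circadian clock.

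SREBP2 binds sterol regulatory elements close to gene starts together with NF-Y, a factor that binds the CCAAT box. The 250 bases before the start were read from RefSeq promoter sequences (GRCm38.p6), which held Hmgcs1, Mvd, Idi1, Lss and Srebf2. Shown are Hmgcs1 and Mvd, which rose in the mutant, Idi1, which did not, and Srebf2. Capitals mark TCACCCCA, the core of a classical sterol regulatory element, and CCAAT, each on either strand (CCAAT reads as attgg on the other).
Hmgcs1 (chr13:119690101-119690350, plus strand): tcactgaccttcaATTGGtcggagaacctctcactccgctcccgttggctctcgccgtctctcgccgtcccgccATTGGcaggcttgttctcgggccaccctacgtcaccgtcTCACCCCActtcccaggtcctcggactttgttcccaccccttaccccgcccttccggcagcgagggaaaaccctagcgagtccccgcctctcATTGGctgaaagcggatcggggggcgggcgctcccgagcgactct
Mvd (chr8:122443423-122443672, minus strand): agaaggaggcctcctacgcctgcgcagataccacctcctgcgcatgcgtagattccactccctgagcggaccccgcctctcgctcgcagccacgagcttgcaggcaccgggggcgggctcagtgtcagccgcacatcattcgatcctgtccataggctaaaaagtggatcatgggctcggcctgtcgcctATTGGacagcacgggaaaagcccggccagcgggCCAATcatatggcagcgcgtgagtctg
Idi1 (chr13:8885356-8885605, plus strand): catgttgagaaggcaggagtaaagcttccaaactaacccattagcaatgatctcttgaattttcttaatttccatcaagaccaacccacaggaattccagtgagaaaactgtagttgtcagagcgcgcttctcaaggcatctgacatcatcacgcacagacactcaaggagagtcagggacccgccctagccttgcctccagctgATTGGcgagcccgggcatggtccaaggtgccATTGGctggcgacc
Srebf2 (chr15:82147019-82147268, plus strand): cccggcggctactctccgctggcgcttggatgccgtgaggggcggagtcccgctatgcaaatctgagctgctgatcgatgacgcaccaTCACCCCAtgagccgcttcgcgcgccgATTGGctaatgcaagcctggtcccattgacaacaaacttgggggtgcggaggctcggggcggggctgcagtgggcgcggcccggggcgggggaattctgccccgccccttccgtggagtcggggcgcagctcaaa

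The 5 windows shared CCAAT. Hmgcs1 held 3 copies, Mvd and Idi1 held 2 each, and Lss and Srebf2 held 1 each, whereas 33.8% of all 32851 promoter windows of this length held at least 1. TCACCCCA, which 1.34% of all windows held, began 137 bases before the start of Hmgcs1 and 162 bases before that of Srebf2. The GC box GGGCGG, searched on both strands, was in all 5 windows and in 32.7% of all windows. CACGTG, the E-box that CLOCK and BMAL1 bind, was in none of the 5 windows and in 6.02% of all windows. Of the other sterol genes described further on, 14 were in the promoter table; 14 of these held CCAAT, 4 CACGTG and 0 TCACCCCA. The motifs were chosen with these sequences in view, matches describe letters and not bound sites, and a missing match says only that these letters are not in the window.

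A gene was called at a Benjamini-Hochberg adjusted p under 0.05 over all genes in limma, a linear model across all 9 arrays; on that rule 15.4% of genes were called in mutant against wild type, 3.81% in rescue against mutant and 2.28% in rescue against wild type. On the RMA log2 scale used throughout, where 1 unit is a doubling, the mutated gene Clock read 9.97, 9.24 and 9.30 in wild type, 10.88, 9.89 and 10.55 in mutant, and 10.33, 9.41 and 9.62 in rescue. Clock was called higher in mutant against wild type, by 0.94 ± 0.26 (SE; limma adjusted p = 0.0266). Rescue against mutant was -0.66 ± 0.26 (limma adjusted p = 0.168). Whether its probe set separates mutant from plasmid transcript could not be told, so these values do not check the labels. Hepatocyte markers were bright in every group, with a summed level of 8 markers between 15.33 and 15.63 over all arrays. The number of arrays limits the precision, and the labels do not say that the samples of a group came from separate animals, so p-values measure only the spread between these samples, which may be technical.

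Hmgcs1 had the largest difference of the 7 genes in mutant liver and stayed high in rescue liver. It encodes the cytosolic HMG-CoA synthase, which condenses acetyl-CoA and acetoacetyl-CoA at the entry of the pathway. Its level was 10.25, 10.07 and 10.22 in wild type, 11.07, 11.25 and 11.15 in mutant, and 11.07, 11.02 and 10.89 in rescue. All mutant and all rescue livers lay above all wild-type livers, and mutant and rescue values overlapped. The gene rose 1.97-fold in mutant against wild type (log2 difference 0.98 ± 0.10, SE; limma adjusted p = 6.1e-05, n = 3 per group). It was also higher in rescue than in wild type, by 0.81 ± 0.10 (limma adjusted p = 8.76e-04). Between rescue and mutant the difference was -0.16, with a 95% interval from -0.39 to 0.06 (limma adjusted p = 0.392). Both calls held under all 18 alternatives, with differences from 0.90 to 1.04 in mutant against wild type and from 0.76 to 0.89 in rescue against wild type.

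Mvd and Fdps, which act later in the isoprenoid stretch, were highest in mutant liver and lay between the other groups in rescue liver. Mvd encodes mevalonate diphosphate decarboxylase, which yields isopentenyl diphosphate. Its level was 5.87, 6.11 and 5.90 in wild type, 6.62, 6.88 and 6.79 in mutant, and 6.46, 6.30 and 6.28 in rescue. The 3 groups did not overlap with one another. Mvd rose by 0.80 ± 0.11 in mutant against wild type (limma adjusted p = 3.85e-04, n = 3 per group). Rescue against mutant was -0.42 ± 0.11 (adjusted p = 0.0519) and rescue against wild type 0.39 ± 0.11 (adjusted p = 0.093), so neither passed. Rescue against mutant was called in 3 of 18 alternatives: with array weights (adjusted p = 0.031), with a trended and robust prior (0.0335) and without the dimmest 40% of genes (0.0266), a filter under which rescue against wild type was called as well (0.047).

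Fdps encodes farnesyl diphosphate synthase, which joins isoprenoid units to the precursor of squalene, of dolichol, of ubiquinone and of protein prenyl groups. It read 8.20, 8.28 and 8.15 in wild type, 9.31, 9.08 and 8.81 in mutant, and 8.88, 8.51 and 8.48 in rescue. Every mutant and rescue liver lay above every wild-type liver, and rescue replicate 1 lay above mutant replicate 3. The rise in mutant against wild type was 0.86 ± 0.14 (limma adjusted p = 9.98e-04, n = 3 per group). Rescue against mutant was -0.45 ± 0.14 (adjusted p = 0.0844) and rescue against wild type 0.41 ± 0.14 (adjusted p = 0.154). Without rescue replicate 1, the highest of its group, rescue against mutant was called, at -0.57 (limma adjusted p = 0.0461). It was also called with quantile normalization repeated (0.0468) and with a trended and robust prior (0.044).

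**Figure D1:**
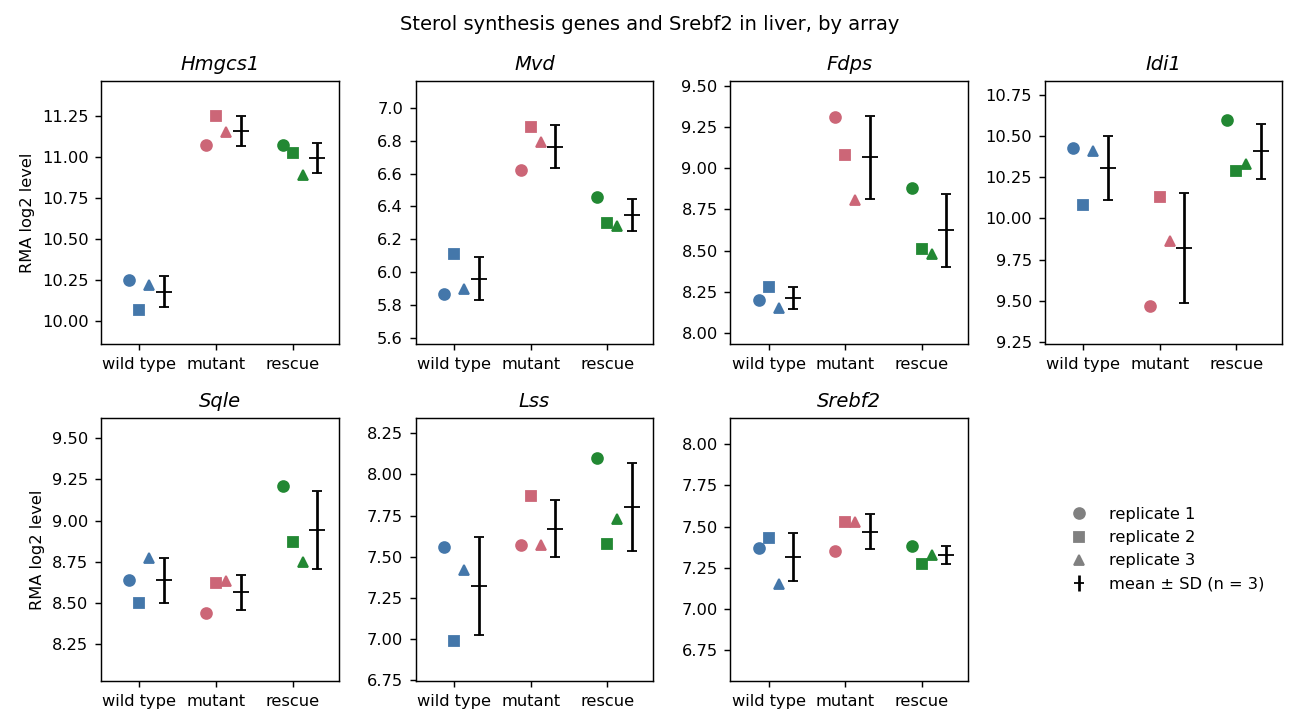
RMA log2 level of the 7 genes on each of the 9 arrays (y axis, each panel spanning the same range of log2 units) in wild-type, Clock mutant and rescue liver; symbols mark replicates and bars the mean ± SD of 3 arrays. Hmgcs1, Mvd and Fdps are above wild type on all mutant arrays, whereas Idi1 is lowest in mutant replicate 1 (9.47) and Srebf2 overlaps between all groups.

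Idi1 differed in the other direction. It encodes isopentenyl diphosphate isomerase, whose reaction stands between those of Mvd and Fdps. Its level was 10.43, 10.08 and 10.41 in wild type, 9.47, 10.13 and 9.86 in mutant, and 10.60, 10.29 and 10.33 in rescue. Mutant and wild type overlapped in 1 place, where mutant replicate 2 lay just above wild-type replicate 2, and all rescue livers lay above all mutant livers. Mutant against wild type was -0.48 ± 0.16 (limma adjusted p = 0.05002, n = 3 per group) and rescue against mutant 0.58 ± 0.16 (adjusted p = 0.0523), both at the edge of the threshold and neither called. Rescue against wild type was 0.10, with a 95% interval from -0.24 to 0.43 (adjusted p = 0.857).

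The call on Idi1 turned on single arrays and settings. Mutant against wild type was called in 8 of 18 alternatives, among them without mutant replicate 2 (-0.64, limma adjusted p = 0.0183), without wild-type replicate 2 (-0.60, 0.0342), without rescue replicate 1 (0.0482) and with each array centred on its median (-0.56, 0.0262). Rescue against mutant was called in 7 of 18, among them without mutant replicate 2 (0.74, limma adjusted p = 0.0381) and with median centring (0.64, 0.0326). Over the alternatives the differences ran from -0.64 to -0.31 and from 0.41 to 0.74. Idi1 had another, dimmer probe set annotated to the same transcripts, on which mutant minus wild type was -0.49 and rescue minus mutant 0.64. Whether 1 of these probe sets also reads a copy of the gene elsewhere in the genome could not be told. The 2 sets are therefore not independent measures of Idi1. Probe set numbers mostly follow chromosome order for the genes examined here. The kept set is numbered between those of Acss2 and Nr1h3, both on chromosome 2, whereas Idi1 lies on chromosome 13. The dimmer set is numbered nearest to that of Mylip, on chromosome 13 like Idi1. The levels and ratios of Idi1 given here are from the kept set. Where the probes of the 2 sets map was not tested.

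Because a ratio of 2 genes on the same array does not move with the scaling of that array, Hmgcs1, Mvd and Fdps were also set against Idi1, a choice made after their values were seen and given as a description without a test. Relative to the wild-type mean, the log2 ratio of Hmgcs1 to Idi1 was 1.72, 1.25 and 1.41 in mutant and 0.60, 0.86 and 0.68 in rescue, against -0.05, 0.11 and -0.06 in wild type. The ratio of Mvd to Idi1 averaged 1.29 in mutant and 0.29 in rescue, and that of Fdps to Idi1 1.34 and 0.32. For all 3 ratios the mutant arrays lay above every rescue and wild-type array. Idi1 was lowest in mutant, so the ratios carry its difference as well as that of the gene above it. The mean ratio of Hmgcs1 in mutant was 1.46, where Hmgcs1 itself differed from wild type by 0.98 and Idi1 by -0.48. Between rescue and mutant Hmgcs1 overlapped and differed by -0.16, whereas Idi1 differed by 0.58. The rescue arrays lay above the wild-type arrays for Hmgcs1, and overlapped with them for Mvd and Fdps through wild-type replicate 2.

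**Figure D2:**
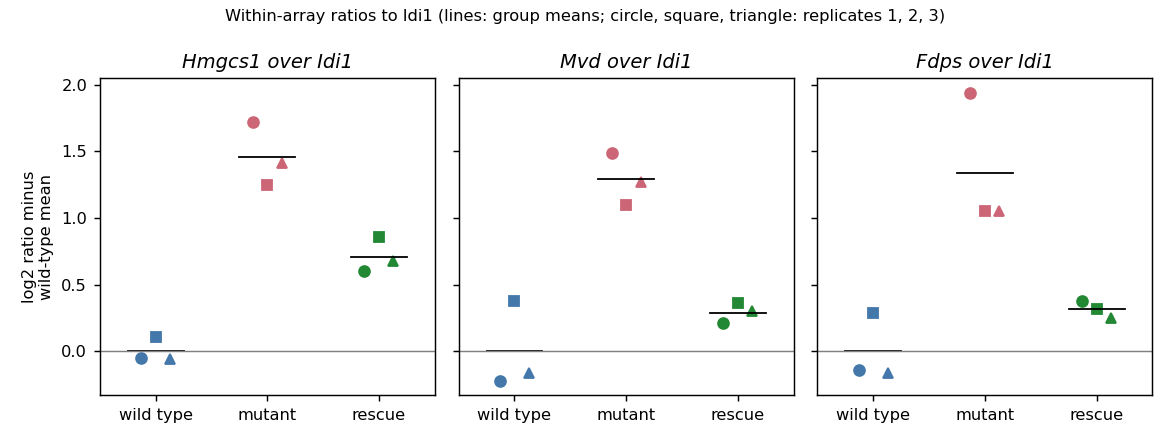
Within-array log2 ratio of Hmgcs1, Mvd and Fdps to Idi1 (y axis, minus the wild-type mean) on the 9 arrays, with group means as lines. The mutant arrays sit between 1.05 and 1.94 in the 3 panels and the rescue arrays between 0.21 and 0.86.

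Sqle and Lss, the enzymes that lead from squalene to the first sterol, passed in no comparison. Sqle encodes squalene epoxidase, which oxidises squalene before ring closure. It read 8.64, 8.50 and 8.77 in wild type, 8.44, 8.62 and 8.63 in mutant, and 9.21, 8.87 and 8.75 in rescue. Wild type and mutant overlapped, and rescue lay above mutant on every array. Its difference was -0.07 in mutant against wild type (95% interval -0.35 to 0.20, limma adjusted p = 0.727), 0.38 ± 0.13 in rescue against mutant (adjusted p = 0.11) and 0.30 ± 0.13 in rescue against wild type (adjusted p = 0.284). Without rescue replicate 1 the latter differences were 0.25 and 0.17.

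Lss encodes lanosterol synthase, which closes the sterol rings. Its level was 7.56, 6.99 and 7.42 in wild type, 7.57, 7.87 and 7.57 in mutant, and 8.10, 7.58 and 7.73 in rescue. Wild-type replicate 2 stood below the other livers, while wild-type replicate 1 and mutant replicates 1 and 3 were within 0.01 of each other. The differences were 0.35 ± 0.16 in mutant against wild type (limma adjusted p = 0.162), 0.48 ± 0.16 in rescue against wild type (adjusted p = 0.165) and 0.13 ± 0.16 in rescue against mutant (adjusted p = 0.669), and without wild-type replicate 2 the first of these was 0.18 and the second 0.31.

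The transcript of the driving factor differed little. Srebf2 read 7.37, 7.43 and 7.15 in wild type, 7.35, 7.53 and 7.53 in mutant, and 7.38, 7.27 and 7.33 in rescue, with overlap between all groups. Its range over the 9 arrays, 0.38, was the smallest of the 7 genes, which otherwise spanned 0.76 (Sqle) to 1.19 (Hmgcs1). The difference was 0.15 in mutant against wild type (95% interval -0.08 to 0.38, limma adjusted p = 0.362), -0.14 in rescue against mutant (-0.37 to 0.09, adjusted p = 0.481) and 0.01 in rescue against wild type (-0.22 to 0.24, adjusted p = 0.98). Arrays do not measure cleavage of the SREBP2 protein, which sets its activity.

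Counted together, 3 of the 7 genes rose in mutant against wild type and none fell, against 6.37% of all genes called higher and 9.02% called lower. The 7 genes were chosen with earlier results of these data known, so their share is a description and no test of the pathway. Of the 16 other sterol genes described further on, 12.5% were called, against 15.4% of all genes. With each array centred on its median the 3 rises stayed called, while over all genes 610 were called higher and 2272 lower, instead of 1270 and 1798. The median difference of the 7 genes was 0.35, and that of all genes 0.07. In rescue against mutant 0 of 7 passed in limma at an adjusted p under 0.05, with 2.61% of all genes called higher and 1.2% lower (520 and 239 genes, but 780 and 126 with median centring). Of the 7, 4 had an unadjusted p under 0.05, and the count ran from 0 to 3 over the alternatives; the median was -0.14 against -0.05 for all genes. In rescue against wild type Hmgcs1 alone of the 7 passed, with 0.928% of all genes called higher and 1.35% lower, and the median was 0.39 against 0.01. All 7 differences were above 0 in that comparison, but those of Srebf2 (0.01) and Idi1 (0.10) were small. Over the alternatives these 2 ran from -0.07 to 0.07 and from -0.015 to 0.18, so their signs were not stable. Mutant and wild type did not overlap for 4 of the 7 genes, all higher in mutant, against 35.7% of all genes (20.3% higher). Rescue and mutant did not overlap for 3 of 7, Mvd being lower and Idi1 and Sqle higher in rescue, against 25.7% of all genes. Rescue and wild type did not overlap for 4 of 7, against 19.5%. Both counts of 4 include Lss, which was not called. Its highest wild-type value was 7.565, and its lowest were 7.567 in mutant and 7.576 in rescue. The comparisons share arrays, so they are not independent of each other.

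**Figure D3:**
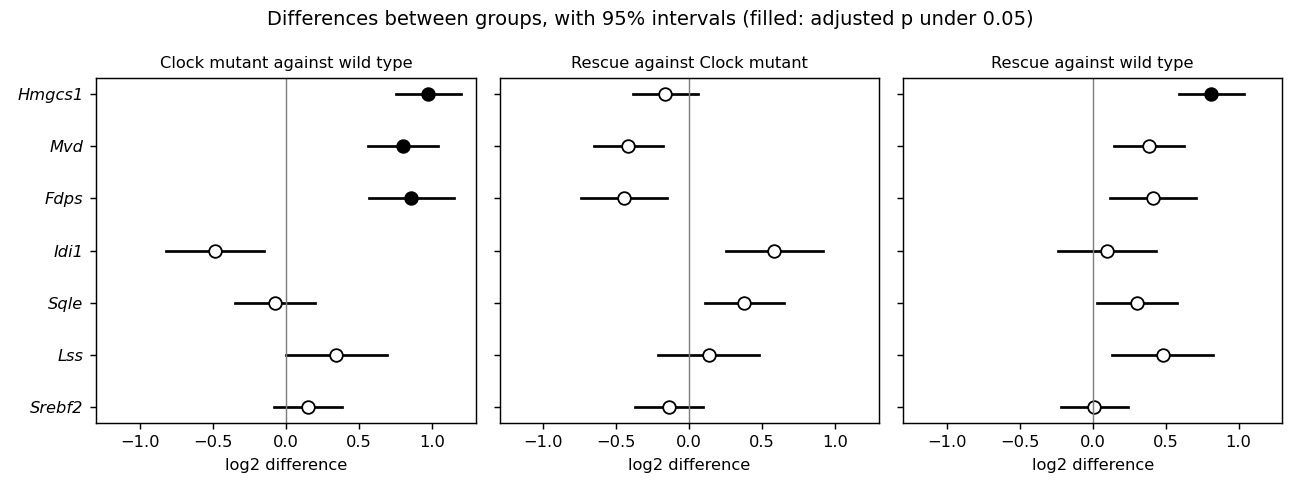
Difference in log2 level of the 7 genes (x axis) in the 3 comparisons, with the 95% interval of the linear model; filled points have an adjusted p under 0.05. In mutant against wild type Hmgcs1 (0.98), Fdps (0.86) and Mvd (0.80) are filled, and Idi1 (-0.48) lies on the other side of 0.

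Within the rescue group replicate 1 had the highest level of all 7 genes, and of 11 of the 16 other sterol genes, whereas 30.3% of all genes were highest on that array. Mutant replicate 1 had the lowest level of its group for 6 of the 7 genes, Fdps being its highest, and for 6 of the 16 other sterol genes, against 33.8% of all genes. Without rescue replicate 1, rescue against wild type was called for Hmgcs1 and for no other of the 7.

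The rest of the pathway was read from a list of 15 other sterol synthesis enzymes, of which 12 were measured, and 6 other SREBP2 targets, of which 4 were measured. In mutant against wild type 2 of these 16 genes passed, both upward, and 14 did not. This is 12.5% called, against 15.4% of all genes, and the median difference was 0.07, as for all genes. Ebp, a sterol isomerase of the late pathway, was 8.43, 8.0 and 8.22 in wild type, 9.12, 8.78 and 9.07 in mutant, and 8.90, 8.31 and 8.73 in rescue. It rose by 0.77 ± 0.16 in mutant (limma adjusted p = 0.00425), with no overlap between mutant and wild type, and was called under all 18 alternatives. Rescue against mutant was -0.34 ± 0.16 (adjusted p = 0.226) and rescue against wild type 0.43 ± 0.16 (adjusted p = 0.199).

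Tmem97, whose protein binds sterol and the cholesterol transporter NPC1, was the gene of this list that changed in both directions. It read 8.59, 8.38 and 8.27 in wild type, 8.81, 8.92 and 9.0 in mutant, and 8.45, 8.05 and 8.45 in rescue, so that the mutant livers were the highest. It rose by 0.50 ± 0.13 in mutant against wild type (limma adjusted p = 0.0181) and fell by 0.59 ± 0.13 in rescue against mutant (adjusted p = 0.0247). The rise was not called without mutant replicate 3 (adjusted p = 0.0642) or wild-type replicate 2 (0.0519) or 3 (0.0846). It was also not called with the mean of all probe sets of a gene (0.44, limma adjusted p = 0.0595). The fall was not called without any 1 of mutant replicates 1, 2 and 3 (0.0575, 0.0631 and 0.0752) or without rescue replicate 2 (0.0839). On its other, dimmer probe set the differences were 0.39 and -0.63. Among the genes examined, the kept set is numbered nearest to that of Bdh1 on chromosome 16, whereas Tmem97 lies on chromosome 11. The dimmer set is numbered between those of Srebf1 and Acly, both on chromosome 11. Where the probes of either set map was not tested.

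Of the 16 genes, Tmem97 was the 1 that passed in rescue against mutant (6.25%, against 3.81% of all genes), and 0 passed in rescue against wild type, where 2 had an unadjusted p under 0.05 in limma. Cyp51, the lanosterol demethylase, was singled out after its values were seen because it differed in the same directions as Idi1. Its level was 10.48, 10.16 and 10.37 in wild type, 9.90, 10.03 and 10.10 in mutant, and 10.69, 10.39 and 10.29 in rescue. Mutant against wild type was -0.32 ± 0.13 (limma adjusted p = 0.0978) and rescue against mutant 0.45 ± 0.13 (adjusted p = 0.0619). Insig1, which SREBP2 induces and which restrains it, was at -0.22 ± 0.13 in mutant against wild type (adjusted p = 0.28) and 0.31 ± 0.13 in rescue against mutant (adjusted p = 0.196).

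**Figure D4:**
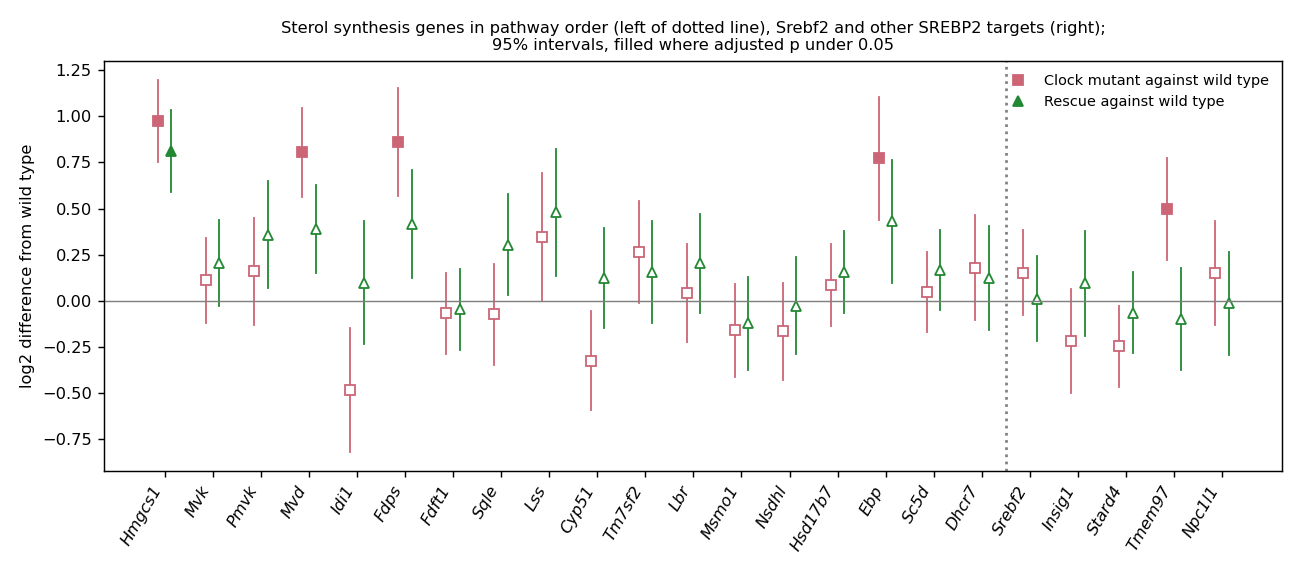
Log2 difference from wild type (y axis, with 95% intervals) for 18 sterol synthesis genes in the order of the pathway, left of the dotted line, and for Srebf2 and 4 other SREBP2 targets, right of it; squares are Clock mutant, triangles rescue, and filled symbols have an adjusted p under 0.05. Filled squares are Hmgcs1, Mvd, Fdps, Ebp and Tmem97, and the filled triangle is Hmgcs1.

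Of 9 measured genes on a list for SREBP2 control, which also held Srebf1, 3 fell in mutant against wild type and none rose. Of all genes 9.02% were called lower and 6.37% higher. Erlin1, an endoplasmic reticulum protein linked to SREBP retention, was 9.37, 9.08 and 9.37 in wild type, 8.71, 8.72 and 8.74 in mutant, and 9.08, 8.89 and 9.01 in rescue, and fell by 0.55 ± 0.11 in mutant (limma adjusted p = 0.00385). Rnf145, a ubiquitin ligase of the same membrane, fell by 0.56 ± 0.14 in mutant (adjusted p = 0.0127) and by 0.58 ± 0.14 in rescue against wild type (adjusted p = 0.0382). Rnf139, another such ligase, fell by 0.35 ± 0.10 in mutant (adjusted p = 0.0347).

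The calls on both ligases depended on single arrays and, for Rnf139, on the normalization. In mutant against wild type Rnf145 was not called without mutant replicate 1 (limma adjusted p = 0.0581) or wild-type replicate 1 (0.0588), and in rescue against wild type it was not called without any 1 of the 6 rescue and wild-type arrays (0.0511 to 0.156) or with those arrays alone (0.0542). Rnf139 was not called without mutant replicate 1 or 3 or wild-type replicate 1 or 3 (0.0692 to 0.117), or with quantile normalization repeated (-0.28, 0.0699). Scap, the escort of SREBP2, did not pass, with 0.37 ± 0.13 in mutant against wild type (adjusted p = 0.0672) and 0.36 ± 0.13 in rescue against wild type (adjusted p = 0.192). It was called higher in mutant in 6 of 18 alternatives, among them without rescue replicate 2 (limma adjusted p = 0.0319), with quantile normalization repeated (0.47, 0.0174) and with the trended and robust prior (0.0358). Insig2 varied widely within groups, from 10.22 to 11.58 in mutant and from 10.56 to 11.81 in wild type (difference 0.10 ± 0.33, adjusted p = 0.87). Srebf1, which encodes the related factor SREBP1, was at -0.18 ± 0.13 in mutant and -0.44 ± 0.13 in rescue against wild type (limma adjusted p = 0.379 and 0.114). In rescue against mutant 0 of the 9 genes on this list passed in limma, with 1 at an unadjusted p under 0.05.

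Farnesyl diphosphate, the product of Fdps, also feeds dolichol, ubiquinone and protein prenylation. Of 9 measured genes of these branches 1 rose and 2 fell in mutant against wild type, against 6.37% of all genes called higher and 9.02% lower. Fnta, the alpha subunit of farnesyltransferase, fell by 0.50 ± 0.11 (limma adjusted p = 0.00743) under all 18 alternatives. Nus1, a subunit of the dolichol-making enzyme, fell by 0.33 ± 0.10 (adjusted p = 0.0334), and Fntb, the other farnesyltransferase subunit, rose by 0.42 ± 0.13 (adjusted p = 0.0453). The call on Nus1 was lost without any 1 of the 6 wild-type and mutant arrays (0.0505 to 0.105) and with quantile normalization repeated (-0.24, 0.135). The call on Fntb was lost without any 1 of 7 arrays (0.0508 to 0.185), with median centring (0.105), with quantile normalization repeated (0.0986) and with the arrays of the 2 groups alone (0.0509). Fntb was dim, with means of 4.78 in wild type and 5.21 in mutant, and the filter on dim genes removed it. None of the 9 passed in rescue against mutant or in rescue against wild type in limma, with 2 at an unadjusted p under 0.05 in each.

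Cholesterol leaves hepatocytes through export and conversion to bile acids. Of 9 measured genes for export, esterification and bile acid synthesis, 0 passed in mutant against wild type in limma (1 at an unadjusted p under 0.05). Cyp7a1, the rate-limiting enzyme gene of bile acid synthesis, was 10.55, 10.67 and 11.00 in wild type, 10.42, 10.18 and 10.22 in mutant, and 8.95, 7.61 and 9.15 in rescue. The rescue livers were the lowest without overlap. Cyp7a1 fell by 1.71 ± 0.28 in rescue against mutant and fell by 2.17 ± 0.28 in rescue against wild type (limma adjusted p = 0.00824 and 9.19e-04). The first call was lost under the trended and robust prior (0.0662). The difference of -0.47 ± 0.28 between mutant and wild type did not pass (limma adjusted p = 0.282), though these 2 groups did not overlap. It was called without rescue replicate 2 (0.028) and with the arrays of the 2 groups alone (0.0358). The 3 groups share 1 estimate of spread in the main fit. The SD was 0.84 in rescue, 0.24 in wild type and 0.13 in mutant.

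Lipogenic genes that SREBP1 drives were set beside the sterol genes. Of 12 measured, 1 rose in mutant against wild type and 1 fell in rescue against mutant. That is 8.33% in each, against 15.4% and 3.81% of all genes, so the first share lay below that of all genes. Acss2, which makes cytosolic acetyl-CoA from acetate, was 9.96, 9.93 and 9.88 in wild type, 10.78, 10.80 and 10.47 in mutant, and 10.73, 10.06 and 10.32 in rescue, and rose by 0.76 ± 0.15 in mutant (limma adjusted p = 0.0038). Every mutant and rescue liver lay above every wild-type liver, and rescue against wild type was 0.45 ± 0.15 (adjusted p = 0.162). Thrsp, a lipogenic gene that answers to thyroid hormone and diet, fell by 0.98 ± 0.24 in rescue against mutant (adjusted p = 0.0407), a call that was lost without any 1 of 6 arrays (0.0523 to 0.123). It was also lost with median centring (0.0506), with the span trend removed (0.0628) and under the trended and robust prior (0.157). Without rescue replicate 1 Thrsp was also called in rescue against wild type (-1.15, limma adjusted p = 0.0175). In rescue against wild type 0 of the 12 passed in limma, with 4 at an unadjusted p under 0.05. Of the ketone body genes, Acat1 and Bdh1 were measured and passed in no comparison (0 at an unadjusted p under 0.05 in limma).

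Outside all lists, the 5 named genes whose profile lay nearest to the mean profile of the 7 genes were Nelfa, Abcb11, Mad2l2, Clint1 and Hjv. Likeness was the root mean square distance, over the 9 arrays, between log2 values centred per gene, and it was 0.06 for Nelfa and 0.07 to 0.08 for the others. The 7 genes themselves lay 0.15 (Lss) to 0.38 (Idi1) from their own mean profile. Abcb11, the bile salt export pump, was 11.42, 11.37 and 11.37 in wild type, 11.77, 11.78 and 11.69 in mutant, and 11.90, 11.74 and 11.74 in rescue.

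Levels of other cell types moved with the same groups. On the summed log2 level of 9 Kupffer cell markers wild type ran from 11.81 to 12.25, mutant from 10.35 to 10.57 and rescue from 10.86 to 11.21, and 6 of 9 fell in mutant against wild type, Vsig4 by 2.14 ± 0.14 (limma adjusted p = 8.19e-07). For 9 endothelial markers the ranges were 11.38 to 11.57, 10.72 to 10.87 and 10.99 to 11.31, and 5 of 9 fell, Mrc1 by 0.96 ± 0.13 (adjusted p = 3.25e-04). Of 7 stellate cell markers 3 fell, with summed levels of 11.51 to 11.66, 11.07 to 11.17 and 11.41 to 11.55, and all 3, Lrat, Rgs5 and Dcn, were higher again in rescue than in mutant. Over the 7, 5 differences in mutant against wild type were below 0 and 2 above it, Pdgfrb (0.17) and Col1a1 (0.09), neither called. The sums weigh bright markers most, with Vsig4 at a mean of 11.29 and Dcn at 10.97 in wild type. The summed level of 5 lymphocyte markers was 8.29 to 8.48 in wild type, 8.1 to 8.38 in mutant and 8.77 to 8.87 in rescue, and 1 of 5, Cd3g, fell in mutant. In rescue against wild type only Ptprc of the 5 was higher, and the other 4 were lower. The higher sum in rescue therefore rests on Ptprc. Ptprc, the pan-leukocyte marker CD45, was 7.0, 6.55 and 6.90 in wild type, 6.75, 6.90 and 6.54 in mutant, and 8.18, 7.93 and 7.95 in rescue. It rose in rescue by 1.29 ± 0.14 against mutant and by 1.21 ± 0.14 against wild type (limma adjusted p = 3.44e-04 and 2.71e-04). In rescue against mutant 1 of 9 Kupffer cell and 2 of 9 endothelial markers also rose, and in rescue against wild type 4 and 2 of them fell. Beside these counts, 9.02% of all genes were called lower in mutant against wild type and 2.61% higher in rescue against mutant. In rescue against wild type 0.928% were called higher and 1.35% lower. Of the 8 hepatocyte markers 0 passed in any comparison in limma, and 0 had an unadjusted p under 0.05. Bile duct, neutrophil, exocrine pancreas and adipocyte markers did not pass in mutant against wild type (1 of 14, an adipocyte marker, at an unadjusted p under 0.05 in limma); the dimmest, Adipoq at 4.15, lay within the array medians of olfactory receptor genes, 4.15 to 4.33. In bulk liver fewer cells of a type and less RNA per cell cannot be told apart, and the part of cell composition in the sterol gene differences was not tested.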

How the data were processed

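The deposited values are log2 expression per probe set, made by the authors with RMA in Affymetrix Expression Console, per the submitters' processing notes; for their versions and for the build, the sources used here say nothing. RMA subtracts background and equalises the arrays' distributions: a shift of most genes would be lost, and dim genes show too small a difference. A highest value of 13.86 fits a log2 scale.

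Of 35556 probe sets, 21789 had 1 gene symbol, 1621 several and 12146 none; only the first were named, and 21698 matched RefSeq by Entrez identifier. The brightest probe set per gene gave 19938 genes. All 9 arrays were fitted with limma 3.58.1 (R 4.3.3), with 6 residual and 8.47 prior degrees of freedom. Differences are log2 with the model's SE. On simulated data for mutant against wild type, over 19938 genes, 51% of changes of 0.5 and 100% of changes of 1 were called. Figures used matplotlib 3.10.9.

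The 7 genes, the gene lists (71 other pathway genes, 57 measured), the tests and the rule for named genes were chosen with earlier results of these data known. That rule takes the 7 genes, Insig1, Insig2, Scap, Srebf1 and Clock, list genes called in any comparison, up to 3 called markers per cell type, and the 5 nearest profiles, without predicted genes; some items the rule names are not reported here. The alternatives used a replicate block, a filter on dim genes, repeated quantile normalization, median centring, another prior, array weights, a fit of the 2 groups alone, mean probe sets, removal of the trend with gene span, and each array left out.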

Additional observations from a re-analysis of the deposited data

How the results depend on the processing

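Of 378 refits of the 7 genes (21 differences under 18 alternatives), 355 kept their side of the threshold, 23 gained a call, and 0 lost one or were called in the opposite direction. Some small differences that were never called changed sign, among them Sqle in mutant against wild type (-0.15 to 0.02) and Srebf2 in rescue against wild type (-0.07 to 0.07). The 23 concerned Mvd, Fdps and Idi1. The number of the 7 genes called in rescue against mutant, 0 as reported, was 2 with array weights, 1 with median centring, 2 with repeated quantile normalization, 1 with the span trend removed, 3 with a trended and robust prior, 2 without the dimmest 40% of genes, and 0 to 1 with 1 array left out; in rescue against wild type it was 2 rather than 1 without the dimmest 40%. Of the 16 other sterol genes, 2 were called in mutant against wild type, 1 with mean probe sets and 1 to 2 with 1 array left out; in rescue against mutant 1 was called, but 2 with median centring, 2 with a trended and robust prior, 2 without the dimmest 40%, and 0 to 1 with 1 array left out. Over all genes, 3068 were called in mutant against wild type (1695 to 3130 with 1 array left out). In rescue against mutant 759 were called, 1334 with array weights, 1210 with a trended and robust prior, 1178 without the dimmest 40%, and 200 to 692 with 1 array left out. In rescue against wild type 454 were called, 704 with the other prior, 711 without the dimmest 40%, and 233 to 501 with 1 array left out. With the span trend removed Hmgcs1, Mvd and Fdps differed by 0.97, 0.76 and 0.80 in mutant against wild type. With the replicate number as a block, 1 of the 7 genes was called in rescue against mutant (Fdps, adjusted p = 0.048) and 1 of the 16 in rescue against wild type (Ebp, 0.0432); same-numbered arrays deviated together with correlations from -0.11 to 0.19, so the numbers were not taken to pair the animals. Mvd (5.96 in wild type) is the dimmest of the 7 genes, and its differences may be compressed.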
